A study of Homo sapiens with 16 samples.

Results

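The nuclear genes for the respiratory chain were followed through a time course of HER2 kinase inhibition in MCF10A cells, a nontransformed human mammary epithelial line. Rows of the array were taken whose symbol is that of a subunit of NADH dehydrogenase (NDUFA, NDUFB, NDUFC, NDUFS and NDUFV with a number), succinate dehydrogenase (SDHA to SDHD), the cytochrome bc1 complex (UQCR), cytochrome c oxidase (COX4 to COX8) or ATP synthase (ATP5). The rule uses the names alone, with no measured value, and was set with earlier results of these data known. It gave 81 gene symbols on 87 rows, of 18190 symbols on 20589 rows in all. By complex the rows number 37 for complex I, 4 for complex II, 6 for complex III, 18 for complex IV and 22 for complex V. A pair of the symbols belongs to other proteins: COX4NB is the ER membrane protein EMC8 and ATP5S is the assembly factor DMAC2L. NDUFA4, counted here with complex I by its symbol, is now assigned to complex IV under the name COXFA4. Cytochrome c1 (CYC1) and the acyl carrier subunit NDUFAB1 have symbols outside these names and are given with the related genes.

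RNA came from parallel plates harvested every 3 h from 0 to 45 h, in serum-free medium with insulin and EGF, after CP724,714, a small-molecule inhibitor of the HER2 kinase, was added at 1 µM. Each of the 16 time points is 1 array, and the 0 h array is from untreated cells. Plates also received new medium at that moment, and no untreated series was analysed here, so the parts of inhibitor, new medium and time in culture cannot be told apart. The HER2-overexpressing line of the same study was not analysed here.

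The respiratory chain passes electrons from NADH (complex I) and succinate (complex II) through ubiquinone to complex III, from there through cytochrome c to complex IV and on to oxygen. Complexes I, III and IV pump protons across the inner mitochondrial membrane, and complex V, the ATP synthase, lets them flow back and makes ATP. Most subunits are encoded in the nucleus, a smaller number in the mitochondrial genome, and none of the mitochondrial genes was matched on this array. Several subunits of complexes IV and V exist as isoforms from separate genes, some with tissue-specific expression.

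Values are log2 intensities after background correction and quantile normalization, and a difference of 1 is a 2-fold change in intensity. A row was tested where its signal stood above the negative control beads (detection p under 0.05) on at least 3 arrays, which left 80 of the 87 rows, for 75 of the 81 symbols, among 11957 rows tested in all. Of the members, 77 rows were above background on all 16 arrays. Each array's raw median lay between 210.4 and 253.9, no member reached a raw intensity of 60000, and the labels name no chip or other batch. A course was called time-dependent by limma's test on a smooth curve of time, and consecutive windows of 4 arrays (0 to 9 h, 12 to 21 h, 24 to 33 h, 36 to 45 h) were compared with limma, both at an adjusted p under 0.05 over all tested rows. The 4 arrays of a window are different times and not replicates, so their SD also holds any change within the window. As the RNA is from whole cultures, a lower share of expressing cells and less RNA per cell cannot be told apart.

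Of 17 rows for 11 mammary epithelial markers, 10 were above background on all 16 arrays and 2 on none. The 10 included rows of KRT5, KRT17 and KRT18, while KRT14 was above background on 1 array. The 2 rows above background on none, by their detection p, summed to between 2745 and 4423 at 0 to 9 h. They summed to between 1577 and 1927 at 12 to 21 h. They were thus not both dim, and the reason for their detection p was not tested. Of 15 rows for markers of leukocytes, endothelium, fibroblasts, liver and hormone receptor positive cells, 11 were never above background, among them CD3E, VWF, CDH5, COL1A1, COL1A2, PDGFRB, ALB, ESR1 and PGR. Their summed intensity over the 15 rows lay between 706.5 and 750.3 at 0 to 9 h, 815.2 and 902.5 at 12 to 21 h, 840.6 and 880.8 at 24 to 33 h, and 924.1 and 999.6 at 36 to 45 h. The increase lay in CD14 (5.82 on average at 0 to 9 h and 7.60 at 36 to 45 h) and PECAM1 (6.31 and 7.17), while the 11 undetected rows summed to between 459.2 and 484.1 at first and between 485.3 and 515.5 at the end. The part of these markers in the results on respiratory chain genes was not tested.

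Most respiratory chain genes moved little. The highest array stood a median of 1.38-fold above the lowest for a member, against 1.89-fold for all tested rows. Members also gave brighter signals (median mean log2 13.44 against 8.44) and scattered less around the smooth curve of time (median residual SD 0.0886 against 0.195). Among rows with a mean log2 of at least 12, 1 of 59 members (1.69%) was at least 1.7-fold from its 0 h value at some later time, against 22.5% of 1066 other rows. Over all intensities 9 of 80 members reached 1.7-fold, with 44.5% of all tested rows doing so, and no test stands behind this count. They were NDUFA6, NDUFB1, NDUFB3, NDUFC2, UQCR, UQCRC2, COX7A1, ATP5D and ATP5G1, of which UQCR was farthest at 2.66-fold, at 39 h against 0 h. UQCR had its highest value of the series on the 0 h array, 9.03, with 7.96 at 3 h.

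By the smooth curve 49 of 80 members were time-dependent, beside 54.7% of all tested rows. These were 23 of 36 rows in complex I, 2 of 4 in complex II, 4 of 6 in complex III, 9 of 13 in complex IV and 11 of 21 in complex V. Neither the curve nor the main steps called 23 members (38.7% of all tested rows are in that class). Among these were the complex II flavoprotein SDHA, the ubiquitous complex IV isoform COX4I1, COX7A2, and the ATP synthase subunits ATP5E, ATP5F1, ATP5I and ATP5O. COX4I1 stayed between 15.45 and 15.66 over the 16 arrays, a 1.16-fold span, and ATP5E between 15.70 and 15.84, a 1.11-fold span. These spans are after quantile normalization, under which COX4I1 read the same 15.57 at 9, 12, 36 and 39 h. Raw intensities of COX4I1 ran from 42889.2 to 53843.3. The part of the normalization in such narrow spans of bright rows was not tested.

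**Figure D1:**
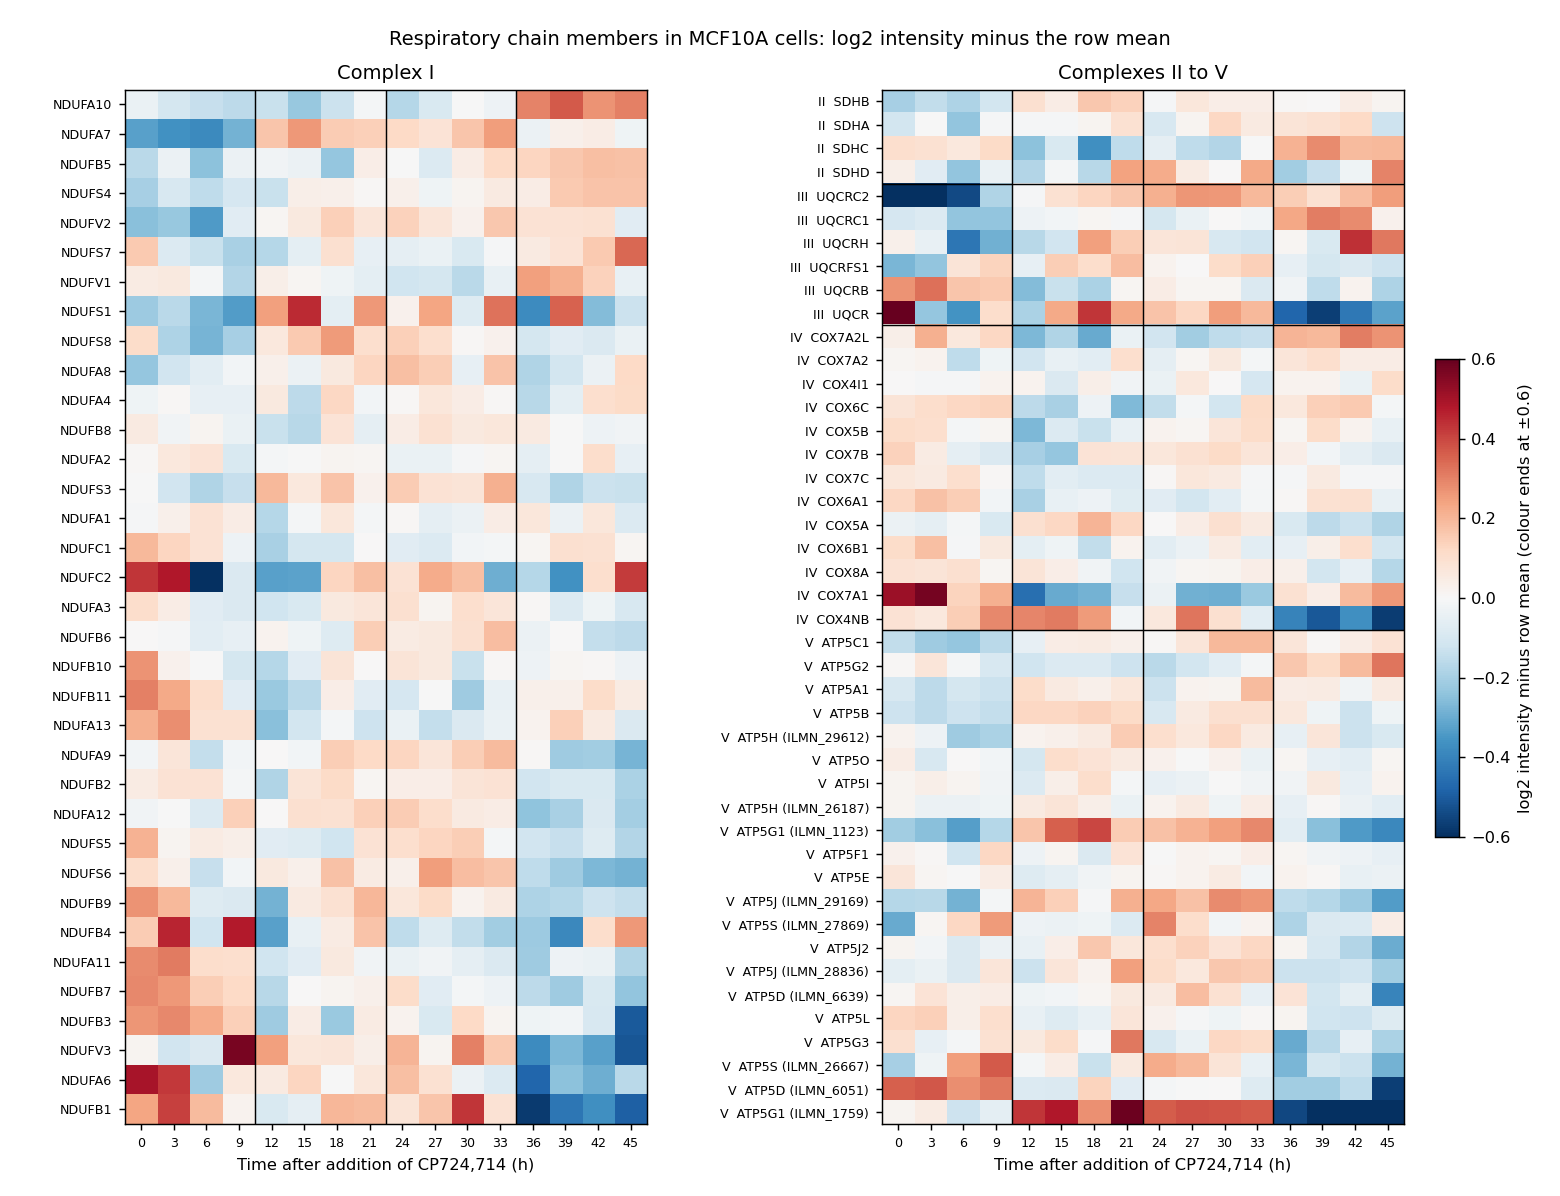
Log2 intensity of 79 of the 80 tested rows minus each row's mean over the 16 arrays, with time in hours on the horizontal axis, black vertical lines between windows of 4 arrays, and rows ordered within each complex by the change from 0-9 h to 36-45 h. Most rows are pale, UQCRC2 turns from blue to red between 6 and 15 h, and both ATP5G1 rows are red from 12 to 33 h and blue at 39 to 45 h.

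Changes came mainly at 2 points of the series, between 9 and 12 h and between 33 and 36 h. From 9 to 12 h the median absolute change of a member was 0.162. By quantile normalization 14 rows moved up and 18 down by more than 0.2 (all tested rows, 28% and 30.3%). From 33 to 36 h the median absolute change was 0.125, with 6 up and 22 down (28.7% and 29.9%). Over the other intervals of 3 h it lay between 0.0515 and 0.101. The same intervals were the largest for all tested rows, at 0.246 and 0.249. The SD inferred for the negative control beads also moved there, from 41.89 at 9 h to 35.06 at 12 h. It went from 34.31 at 33 h to 41.91 at 36 h, and elsewhere from 38.9 at 42 h to 34.25 at 45 h. The part of such array differences in the 2 steps was not tested and cannot be told apart from time.

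The split between higher and lower depended on how arrays were scaled, for members and for all tested rows. Between 0-9 h and 12-21 h, quantile normalization gave 15 members higher and 16 lower, with 15.1% of all tested rows higher and 14.4% lower. Median scaling gave 26 and 2 (all rows, 24.6% and 8.39%), and cyclic loess 12 and 24 (14.7% and 14.5%). Between 24-33 h and 36-45 h the counts were 8 higher (all rows, 19.3%) and 22 lower (18.7%) by quantile normalization. They were 1 and 45 by median scaling (13.8% and 25.9%), and 13 and 15 by cyclic loess (20.6% and 18.8%). Between the ends of the series, 0-9 h and 36-45 h, they were 13 higher (16.2%) and 17 lower (15%), then 18 and 9 (23.7% and 8.36%), and 13 and 15 (16.2% and 14.1%). In either direction quantile normalization called 31 members at the early step (all rows, 29.5%), 30 at the late step (38%) and 30 between the ends (31.2%). Median scaling moved the median of all tested rows by 0.0957, -0.0676 and 0.0916 in the 3 comparisons. In the middle step, from 12-21 h to 24-33 h, no member was called by quantile normalization or cyclic loess, beside 0.0251% of all rows, although 8 members had an unadjusted p under 0.05 by limma, as had 589 of the 11957 tested rows. Median scaling called 1 higher (all rows, 0.117%).

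The calls made under all 3 scalings were fewer. At 12-21 h against 0-9 h they were 12 members higher and 2 lower (all rows, 14.3% and 8.13%). At 36-45 h against 24-33 h 1 member was higher and 15 lower (13.4% and 18.1%). Between the ends 12 were higher and 9 lower (15.7% and 8.35%). At the late step the members called lower were thus near the share of all rows, and the 1 called higher was below it.

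**Figure D2:**
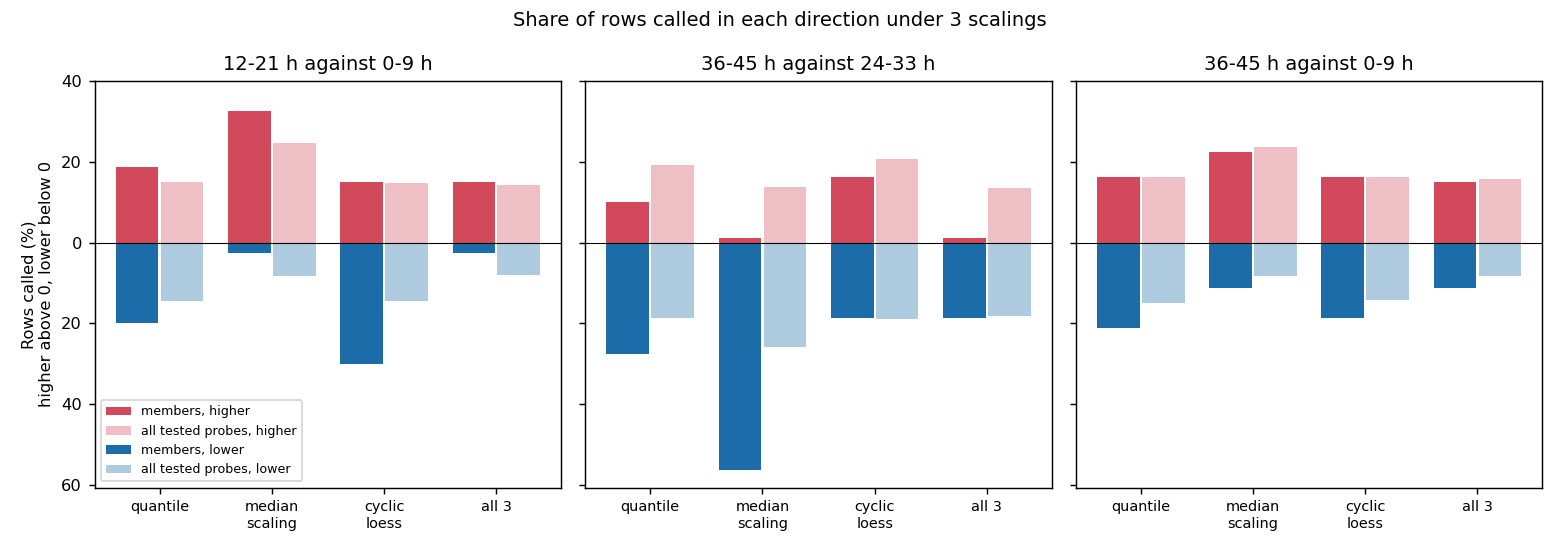
Share of the 80 tested member rows (dark bars) and of all 11957 tested rows (pale bars) called higher (above 0) or lower (below 0), in percent, in 3 comparisons and under 3 scalings, with the share called under all 3 at the right of each panel. The late step goes from 8 higher and 22 lower members by quantile normalization to 1 and 45 by median scaling.

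**Figure D3:**
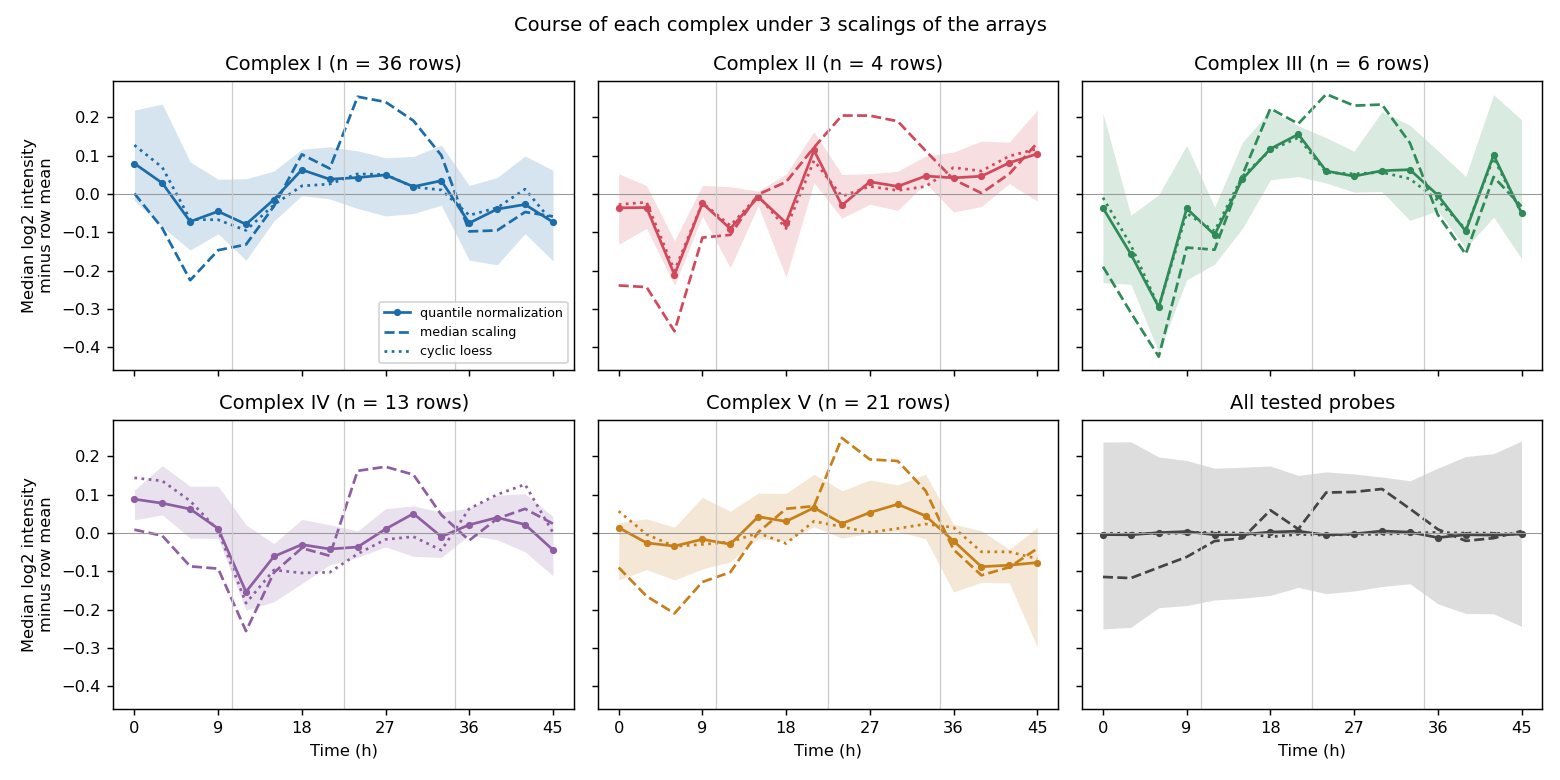
Median log2 intensity minus the row mean for each complex and for all tested rows against time in hours, under quantile normalization (solid line, shaded band from the lower to the upper quartile), median scaling (dashed) and cyclic loess (dotted). Median scaling lifts the arrays of 24 to 30 h in every panel, and complex IV is lowest at 12 h under all 3 scalings.

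By complex, the median log2 change from 0-9 h to 36-45 h was -0.05 for complex I, 0.13 for II, 0.17 for III, -0.05 for IV and -0.04 for V, beside -0.02 for all tested rows. Under median scaling, which took the median of all rows to 0.07, the values were 0.04, 0.25, 0.27, 0.06 and 0.06. Relative to the median of all rows, complexes I, IV and V were then at -0.03, -0.01 and -0.01, and by quantile normalization at -0.03, -0.03 and -0.02. Complex IV had the lowest median at 12-21 h against 0-9 h under each scaling, -0.14 by quantile normalization, -0.05 by median scaling and -0.21 by cyclic loess. No test was made of a complex as a whole.

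The sequence upstream of the starts was searched for letters that regulators of these genes are known to bind. Promoters, here 250 bases before to 50 after the start from RefSeq (GRCh38.p14), were found for 66 of the 81 symbols after older symbols were updated. The letters GCGCA, any base and GCGC in a row, a site of NRF1, a regulator of respiratory chain genes, were in 15 of them on either strand (22.7%), against 5.78% of 35116 promoters in the table and 11% of 6762 genes tested on the array under their current symbol. The letters CCGGAAG on either strand, the core that ETS factors such as GABPA bind, were in 19 (28.8%), against 10.3% and 18.1%. Promoters with both numbered 3, and those with neither 35. A match describes the letters and is no measured binding. Below, SDHD and UQCR are shown because they hold both sets of letters and are among the genes named by rule. ATP5I also holds both and is not shown. ATP5G1 is shown because it had the largest change of any member between the ends, and UQCRC2 because it had the largest rise, both holding neither. Capitals mark the matches, and each line runs 5′ to 3′ on the gene's strand.
SDHD, chr11:112086623-112086922, plus strand: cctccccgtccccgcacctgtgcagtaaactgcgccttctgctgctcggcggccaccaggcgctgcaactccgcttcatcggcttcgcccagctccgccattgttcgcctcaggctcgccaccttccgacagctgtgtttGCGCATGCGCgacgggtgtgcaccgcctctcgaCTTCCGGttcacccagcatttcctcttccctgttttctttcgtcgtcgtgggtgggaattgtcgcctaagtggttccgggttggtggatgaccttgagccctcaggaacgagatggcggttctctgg
UQCR (now UQCR11), chr19:1605413-1605712, minus strand: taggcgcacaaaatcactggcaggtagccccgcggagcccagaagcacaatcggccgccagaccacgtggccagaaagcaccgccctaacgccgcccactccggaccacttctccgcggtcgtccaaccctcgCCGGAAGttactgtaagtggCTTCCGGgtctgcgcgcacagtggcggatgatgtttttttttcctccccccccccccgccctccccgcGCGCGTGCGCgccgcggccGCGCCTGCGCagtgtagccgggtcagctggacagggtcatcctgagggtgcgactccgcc
ATP5G1 (now ATP5MC1), chr17:48892537-48892836, plus strand: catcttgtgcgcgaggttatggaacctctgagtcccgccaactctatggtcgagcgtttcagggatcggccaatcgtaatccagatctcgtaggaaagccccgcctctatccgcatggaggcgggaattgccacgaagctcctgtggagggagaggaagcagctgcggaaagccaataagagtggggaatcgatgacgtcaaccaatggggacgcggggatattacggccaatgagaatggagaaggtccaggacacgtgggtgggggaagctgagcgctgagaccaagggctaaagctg
UQCRC2, chr16:21953111-21953410, plus strand: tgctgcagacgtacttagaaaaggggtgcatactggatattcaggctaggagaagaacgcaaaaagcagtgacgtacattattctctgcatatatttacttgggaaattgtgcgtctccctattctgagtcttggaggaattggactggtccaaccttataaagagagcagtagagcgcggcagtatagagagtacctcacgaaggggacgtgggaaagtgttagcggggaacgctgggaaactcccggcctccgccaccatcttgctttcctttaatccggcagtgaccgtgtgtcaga

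In SDHD the NRF1 letters begin 110 bases before the start and the ETS letters 77. In UQCR the ETS letters begin 117 and 97 bases before it and the NRF1 letters 29 and 10. The letters were not tested against the direction of change. NRF1 letters were in 2 of 12 promoters of members higher at the end of the series, 3 of 14 lower and 9 of 35 not called, and ETS letters in 2, 5 and 12.

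Complex III held the member with the largest sustained rise. UQCRC2, a core protein of the complex, read 10.20, 10.18, 10.28 and 10.64 on the arrays of 0 to 9 h and 10.81, 10.91, 10.95 and 10.98 on those of 12 to 21 h. It then read 10.97, 10.91, 11.00 and 11.07 at 36 to 45 h. Every array from 12 h on was above every array up to 9 h, and the 9 h array already stood above the earlier ones. The change from the first to the last window was 0.66 ± 0.09 (SE), or 1.58-fold, with an adjusted p of 2.80e-05 by limma. It was called under all 3 scalings, and the late step of -0.06 ± 0.09 was not.

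UQCRC1, the other core protein, also rose, and the step that held most of its rise depended on the scaling. It read 12.97, 12.99, 12.83 and 12.83 at 0 to 9 h and 13.30, 13.38, 13.35 and 13.09 at 36 to 45 h, without overlap, a difference of 0.38 ± 0.06 (1.30-fold, adjusted p = 0.000176). The last array had come back towards the middle of the series, where values were 12.96 to 13.08. All arrays at 12 to 21 h, 13.04 to 13.08, were already above those at 0 to 9 h. By quantile normalization the early step was 0.16 ± 0.06, not called (adjusted p = 0.0677 by limma), and the late step 0.25. Under median scaling these steps were 0.32 and 0.04. UQCRB, a small subunit near the ubiquinone site, fell by 0.32 on the log2 scale between the ends (adjusted p = 0.00185) under every scaling, from a highest value of 13.04 at 3 h to a lowest of 12.44 at 12 h. The Rieske iron-sulfur protein UQCRFS1 was time-dependent (adjusted p = 0.00471) with no difference called between the ends: it read 13.45 and 13.49 at 0 and 3 h, 13.80 and 13.86 at 6 and 9 h, and 13.60 at 45 h. UQCR, a small subunit, was 0.63 ± 0.20 lower at 36-45 h than at 24-33 h (adjusted p = 0.017), held under every scaling. UQCRH, the hinge protein, was 0.35 ± 0.13 higher between the ends (adjusted p = 0.0406) but not by the curve (0.146) or under all 3 scalings, with its highest value of 12.15 at 42 h.

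In complex V the genes of the membrane ring parted. ATP5G1, ATP5G2 and ATP5G3 each encode the c subunit, the rotor ring protein, with the same mature product from different precursors. ATP5G1 has 2 rows, and both were higher at 12 to 33 h and lower at the end. The row ILMN_1759 read 9.59, 9.62, 9.45 and 9.51 at 0 to 9 h, then 10.00, 10.05, 9.85 and 10.16 at 12 to 21 h. At 24 to 33 h it read 9.94, 9.96, 9.95 and 9.94, and at 36 to 45 h 9.03, 8.79, 8.80 and 8.54. No array of the last window overlapped any earlier one. The row rose by 0.47 ± 0.10 at the early step and fell by 1.16 ± 0.10 at the late step (2.23-fold, adjusted p = 2.95e-07), the largest step of any member. It ended 0.75 ± 0.10 below its first window (adjusted p = 2.59e-05).

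The row ILMN_1123 of the same gene read 13.39, 13.35, 13.26 and 13.43 at 0 to 9 h and 13.76, 13.95, 13.99 and 13.75 at 12 to 21 h. It read 13.53, 13.35, 13.26 and 13.21 at 36 to 45 h, which overlaps the first window. Its early rise of 0.51 ± 0.07 and late fall of -0.49 ± 0.07 were called under all 3 scalings, and its net change of -0.02 ± 0.07 was not called (adjusted p = 0.863). Both rows moved in the same direction at each step and differed in where they ended.

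A further ATP5G2 row, ILMN_137020, was above background on too few arrays to be tested. The tested ATP5G2 row, ILMN_137008, went the other way at the late step. It read 14.18, 14.23, 14.28 and 14.33 at 24 to 33 h and 14.50, 14.45, 14.53 and 14.66 at 36 to 45 h, with no overlap. That step was 0.28 ± 0.05 (adjusted p = 0.000249) by quantile normalization and 0.15, not called, under median scaling. Its difference between the ends, 0.20 ± 0.05, was called under every scaling. ATP5G3 read between 8.33 and 8.95 and was not called (-0.21 ± 0.10 between the ends, adjusted p = 0.133). The differences between these genes were not tested.

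The F1 head of the ATP synthase carries the catalytic sites. Its alpha, beta and gamma subunits, ATP5A1, ATP5B and ATP5C1, rose at the early step by 0.19 ± 0.05, 0.26 ± 0.05 and 0.21 ± 0.05. ATP5B read 15.41, 15.37, 15.41 and 15.39 at 0 to 9 h and 15.66, 15.66, 15.67 and 15.64 at 12 to 21 h, with no overlap. The rises of ATP5B and ATP5C1 were called under every scaling. ATP5C1 was still higher at the end, by 0.24 ± 0.05 (adjusted p = 0.000875), as was ATP5A1 by 0.15 ± 0.05 (adjusted p = 0.0337), whose curve over time was not called (0.134) and whose difference between the ends lost its call without the array of 3, 6, 9, 36, 39 or 45 h.

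The delta subunit ATP5D moved against them on 1 of its 2 rows. ILMN_6051 read 11.21, 11.22, 11.13 and 11.16 at 0 to 9 h and 10.64, 10.64, 10.70 and 10.28 at 36 to 45 h. It was lower at both steps by quantile normalization and 0.62 ± 0.09 lower between the ends (1.53-fold, adjusted p = 4.26e-05) under every scaling. ILMN_6639 differed by -0.16 ± 0.08 between the ends and was not called (adjusted p = 0.107), with its lowest value, 13.33, at 45 h. The peripheral stalk subunit ATP5J (coupling factor 6) fell at the late step on both rows, by 0.46 ± 0.07 and 0.27 ± 0.06, and under every scaling. The early rise of ATP5J was called on ILMN_29169 (0.30 ± 0.07) and not on ILMN_28836 (0.08 ± 0.06). Of the 5 genes with 2 tested rows, ATP5H and ATP5S had no called difference between the ends on either row, the farthest from 0 being -0.30 on ATP5S (ILMN_26667).

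**Figure D4:**
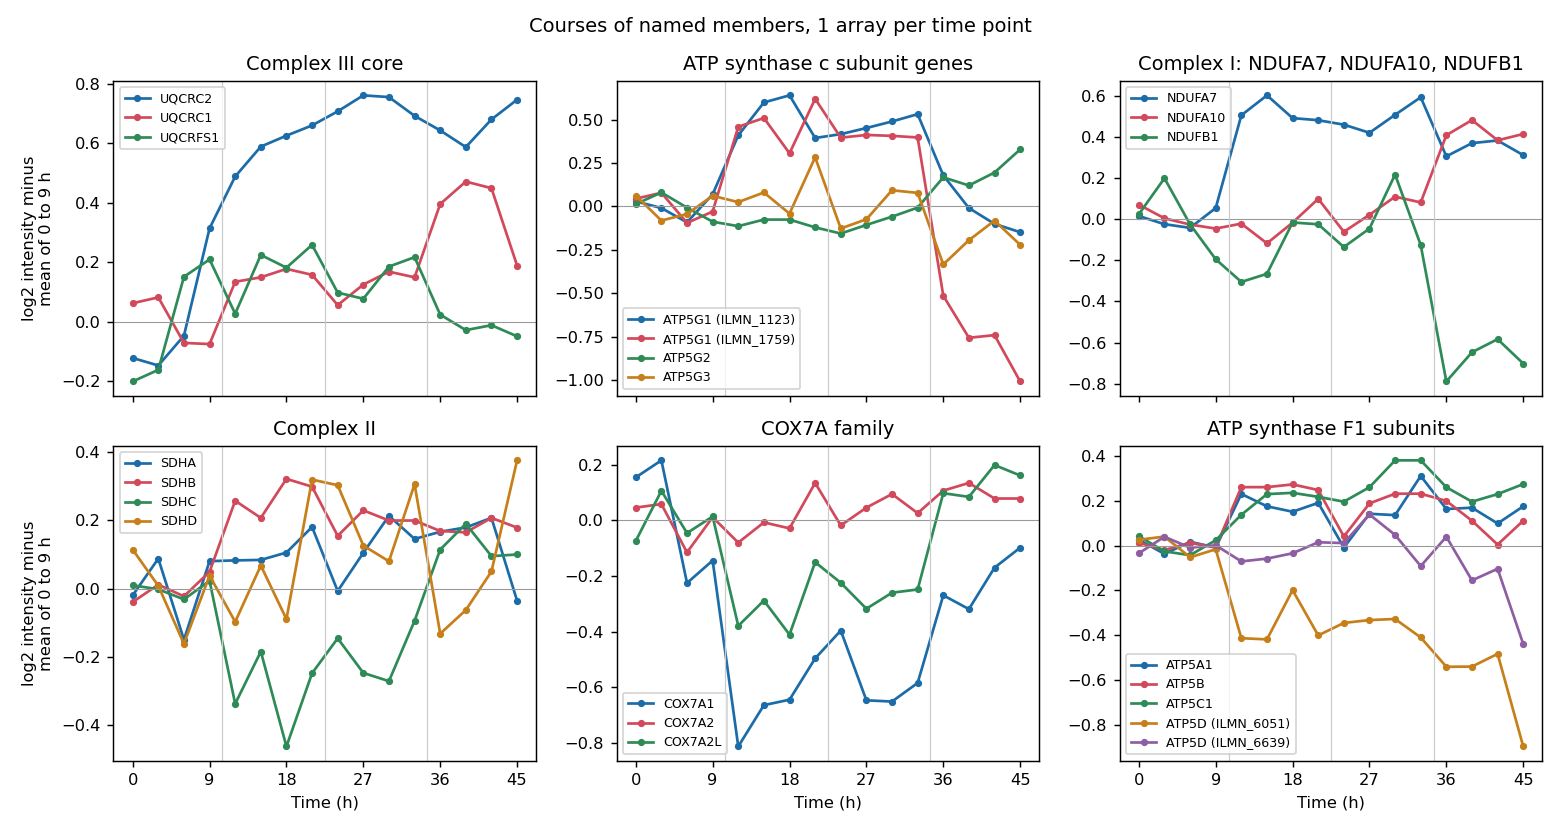
Log2 intensity minus the mean of the 0 to 9 h arrays against time in hours for named members of complexes III, V, I, II and IV, with 1 point per array and vertical lines between windows. From 12 h on UQCRC2 stays above all its arrays up to 9 h, ATP5G1 rises at 12 h and falls at 36 h on both rows, and COX7A1 drops at 12 h and comes partly back.

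Complex I members moved in both directions. NDUFA7, an accessory subunit, had the largest early rise of the complex by quantile normalization, from 11.95, 11.91, 11.89 and 11.99 at 0 to 9 h to 12.44, 12.54, 12.43 and 12.42 at 12 to 21 h. No array overlapped, and the step was 0.52 ± 0.06 (1.43-fold, adjusted p = 4.60e-06). It fell by 0.15 ± 0.06 at the late step and ended 0.34 ± 0.06 above the first window, all called under every scaling. NDUFA10, another accessory subunit, changed late: it read 11.49, 11.57, 11.66 and 11.63 at 24 to 33 h and 11.95, 12.03, 11.93 and 11.96 at 36 to 45 h. Its late step of 0.38 ± 0.06 (adjusted p = 0.000121) was 0.15 and not called under median scaling, while the 0.42 ± 0.06 between the ends (1.34-fold) was called under every scaling.

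NDUFB1, a small membrane-arm subunit, read 7.80, 7.89, 8.15 and 7.81 at 24 to 33 h and 7.14, 7.29, 7.35 and 7.23 at 36 to 45 h. It fell by 0.66 ± 0.12 at that step (1.58-fold, adjusted p = 0.000398) and by 0.68 ± 0.12 between the ends. NDUFV3, a small subunit of the NADH-binding module, was 0.54 ± 0.14 lower at the late step, and its highest value by far was the 9 h array (8.67, with 8.40 at 30 h next). NDUFA6 was 0.49 ± 0.13 lower between the ends (adjusted p = 0.00641), and its first arrays, 11.18 and 11.11 at 0 and 3 h, stood above all later ones. NDUFB3, NDUFB7 and NDUFA11, accessory subunits of the membrane arm, were lower between the ends by -0.39, -0.38 and -0.32. These falls were called under every scaling.

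The catalytic core of complex I, the subunits that hold the flavin and iron-sulfur clusters or lie near the quinone site, did not move as a block. NDUFV2 rose early (0.29 ± 0.06) and stayed higher at the end (0.27 ± 0.06), and NDUFS3 rose early (0.22 ± 0.06) and fell late (-0.27 ± 0.06), each under every scaling. NDUFS8 rose early by 0.28 ± 0.07. NDUFS7 was higher between the ends by 0.22 ± 0.08 (adjusted p = 0.0379), a call lost without the array of 3, 6, 9, 42 or 45 h. NDUFV1, which binds NADH, was 0.25 ± 0.07 higher at the late step by quantile normalization (adjusted p = 0.00891). NDUFS1, above background on 10 arrays, rose early by 0.47 ± 0.15 with all its values under 6.74. NDUFS4, an accessory subunit of the same arm, was 0.27 ± 0.05 higher between the ends, from 13.25 at 0 h to 13.62 at 42 h, and NDUFB5 was 0.28 ± 0.06 higher, both under every scaling.

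Among the other complex I genes, NDUFA12, NDUFA9, NDUFB2, NDUFB6 and NDUFS6 were lower at the late step under every scaling, by -0.27, -0.31, -0.18, -0.18 and -0.39. NDUFS6 was the most changed of these, from 15.18, 15.41, 15.34 and 15.32 at 24 to 33 h to 15.00, 14.94, 14.89 and 14.87 at 36 to 45 h. NDUFA5 was never above background, and NDUFB4 and NDUFC2 only on 3 and 14 arrays, which leaves their courses (adjusted p = 0.217 and 0.697) poorly measured.

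Complex II, the only complex whose subunits are all nuclear, had 4 members on 4 rows. SDHB, its iron-sulfur subunit, read 13.56, 13.61, 13.58 and 13.65 at 0 to 9 h and 13.86, 13.81, 13.92 and 13.90 at 12 to 21 h. The windows did not overlap, and the step was 0.27 ± 0.04 (1.21-fold, adjusted p = 0.000131). It stayed 0.18 ± 0.04 higher at 36-45 h, and both were called under every scaling. SDHC, a membrane anchor, went down and up: it read 12.27, 12.26, 12.23 and 12.28, then 11.92, 12.08, 11.80 and 12.01, and at the end 12.38, 12.45, 12.36 and 12.36. Its steps of -0.31 ± 0.06 and 0.31 ± 0.06 were -0.09 and 0.06 under median scaling. SDHA read 10.00 to 10.36 and SDHD, the other anchor, 11.18 to 11.71, and neither was called.

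Complex IV differed by isoform in whether a row was detected. COX4I1, COX6A1, COX6B1, COX7A2, COX7B and COX8A were above background on all 16 arrays. Their counterparts COX4I2, COX6A2, COX7B2 and COX8C, known from lung, muscle or testis, were above it on none, and COX6B2 on 1. COX7A1, known from heart and skeletal muscle, was the exception, above background on all 16 arrays. It read 10.05, 10.11, 9.67 and 9.75 at 0 to 9 h and 9.09, 9.24, 9.25 and 9.40 at 12 to 21 h, and 9.63, 9.58, 9.73 and 9.80 at 36 to 45 h. The early fall of -0.65 ± 0.11 (1.57-fold, adjusted p = 0.000334) was called under every scaling. The return of 0.36 ± 0.11 (adjusted p = 0.0172) was 0.22 under median scaling and not called under all 3.

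COX7A2L, a related protein that joins complexes III and IV into supercomplexes, was also lower in the middle windows by quantile normalization. Its early fall of -0.31 ± 0.06 was -0.14 under median scaling and was not called under all 3. It read 12.96, 12.87, 12.93 and 12.94 at 24 to 33 h and 13.29, 13.27, 13.39 and 13.35 at 36 to 45 h, a rise of 0.40 ± 0.06 (1.32-fold, adjusted p = 5.76e-05). It was the 1 member higher at the late step under all 3 scalings. Its last window stood 0.14 ± 0.06 above its first, which was not called (adjusted p = 0.0965), and was 0.24 above it under median scaling. COX7A2 read 15.21 to 15.46 and was not called. COX6C fell early by 0.27 ± 0.06, under every scaling, and COX5B, COX6A1 and COX7C fell by 0.19 ± 0.05, 0.19 ± 0.05 and 0.15 ± 0.03 by quantile normalization. COX5A rose by 0.18 ± 0.04 at the early step and fell by 0.19 ± 0.04 at the late one, calls that did not hold under all 3 scalings. COX8A was lower between the ends by -0.14 ± 0.05 (adjusted p = 0.0271), which was not called under median scaling or cyclic loess. COX4NB (EMC8), no subunit, fell by 0.57 ± 0.11 at the late step, from 8.71, 8.97, 8.74 and 8.58 to 8.24, 8.13, 8.28 and 8.08. The complex V row that is no subunit, ATP5S, was lower at the late step on ILMN_26667 (-0.31 ± 0.11, adjusted p = 0.0354), though not under all 3 scalings, and was not called on ILMN_27869 (-0.18 ± 0.11).

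**Figure D5:**
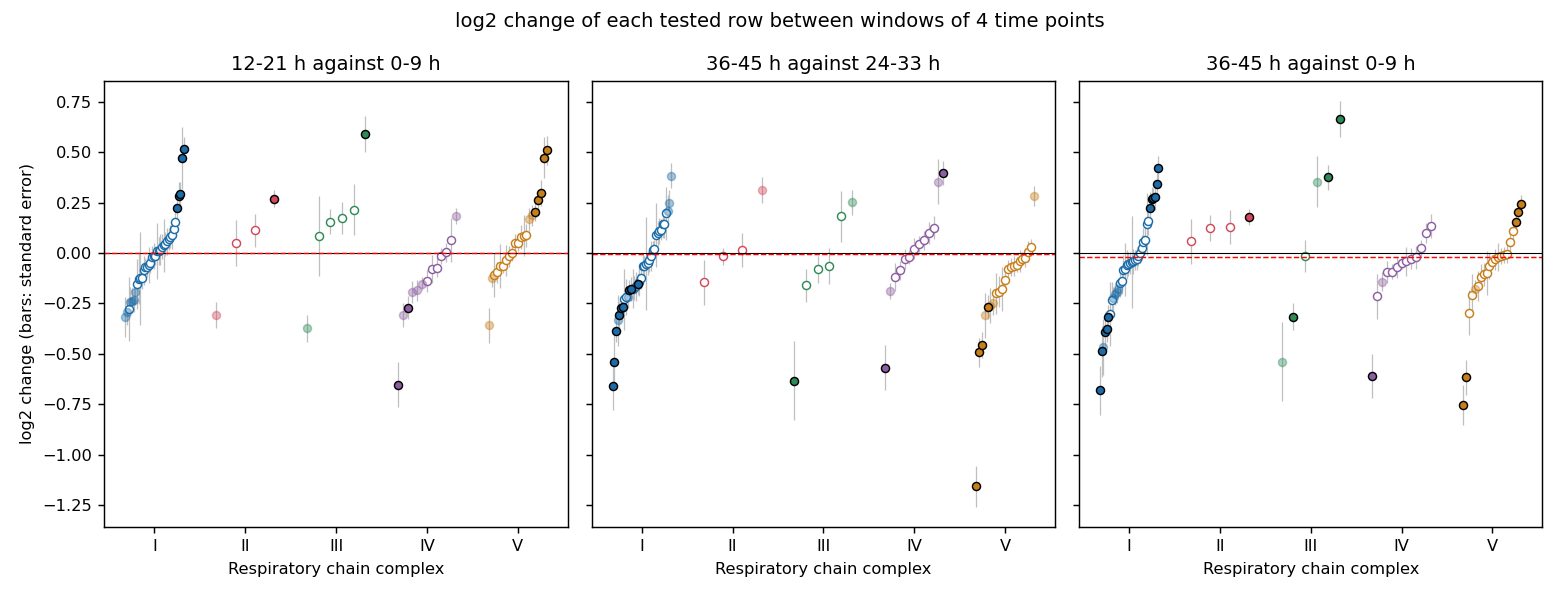
Log2 change of each tested member row by complex in 3 comparisons of windows, with its standard error, open points for rows not called, pale points for rows called by quantile normalization, dark outlined points for rows called under all 3 scalings, and a red dashed line at the median of all tested rows. The lowest point at the late step is ATP5G1 at -1.16 and the highest early change is UQCRC2 at 0.59.

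Joining both steps, 6 members were higher at 12-21 h and then lower at 36-45 h by quantile normalization (all rows, 8.25%): NDUFA7, NDUFS3, COX5A, both ATP5G1 rows and 1 ATP5J row. The reverse, lower and then higher, was found for 3 (7.78%), SDHC, COX7A1 and COX7A2L. NDUFB7 and ATP5D (ILMN_6051) were lower at both (0.728%), and none was higher at both (1%).

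Genes that work beside the chain were read from lists of names. Assembly factors, which build the complexes without staying in them, were matched for 35 of 46 names on 37 tested rows. At the late step 14 of the 37 were lower and none was higher under all 3 scalings (all rows, 18.1% and 13.4%), and at the early step 12 were higher and 1 lower (14.3% and 8.13%). Between the ends 6 were higher and 6 lower (15.7% and 8.35%). TMEM70, which helps build the ATP synthase, was 0.93 ± 0.26 lower between the ends, and LRPPRC, which stabilises mitochondrial mRNA, was 0.80 ± 0.10 higher (adjusted p = 1.58e-05), each under every scaling.

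Of the other subunits and electron carriers, on 11 tested rows, 2 were higher and 1 lower between the ends under every scaling (all rows, 15.7% and 8.35%). Cytochrome c (CYCS), which carries electrons from complex III to IV, fell by 0.94 ± 0.12 (adjusted p = 1.54e-05), with window means of 9.11, 9.05, 8.86 and 8.16. ETFDH, which passes electrons from fatty acid oxidation to ubiquinone, was 0.82 ± 0.12 higher (adjusted p = 5.83e-05), with means of 9.12, 9.37, 9.51 and 9.94. CYC1, the cytochrome c1 of complex III, rose early by 0.34 ± 0.05 and fell late by -0.27 ± 0.05, under every scaling, with a net change of 0.01 ± 0.05. NDUFAB1 did likewise, by 0.28 ± 0.07 and -0.38 ± 0.07.

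Enzymes of the tricarboxylic acid cycle and pyruvate dehydrogenase, on 19 tested rows, were higher between the ends for 6 and lower for 1 under every scaling, beside those same shares of all rows, 15.7% and 8.35%. SUCLG2, a succinyl-CoA ligase subunit, was 0.67 ± 0.11 higher and OGDH, a 2-oxoglutarate dehydrogenase subunit above background on 8 arrays, 0.64 ± 0.23 lower on 1 of its rows. Among regulators of mitochondrial biogenesis, on 18 tested rows, 6 were lower and 1 higher at the late step under every scaling (all rows, 18.1% and 13.4%). TFAM, which packages and transcribes mitochondrial DNA, fell by 0.67 ± 0.10 there (adjusted p = 4.96e-05) and GABPB2 by 0.98 ± 0.28. At the early step 3 regulators were higher and none lower under every scaling (all rows, 14.3% and 8.13%). Between the ends none was higher and 1 lower (15.7% and 8.35%), and TFAM was not called under all 3 scalings. NRF1 and GABPA themselves had changes of -0.10 ± 0.14 and 0.13 ± 0.17 between the ends and were not called. Of the genes that remove reactive oxygen species, on 10 tested rows, 2 were higher and 1 lower between the ends under every scaling (15.7% and 8.35%): NNT, which makes NADPH in mitochondria, was higher on both tested rows (0.92 ± 0.17 and 0.58 ± 0.10). PRDX5 fell by 0.37 ± 0.08 on ILMN_19409, called under every scaling, and its row ILMN_17596 was not called under all 3. Of the carriers and channels, on 8 tested rows, 4 were higher and none lower under every scaling (15.7% and 8.35%). SLC25A3, the phosphate carrier, differed in direction between its rows (-0.38 ± 0.12, not called under all 3 scalings, and 0.23 ± 0.06, called under each), and VDAC2, a channel of the outer membrane, was 0.25 ± 0.06 higher.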

How the data were processed

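Total RNA of MCF10A cells was hybridized to Illumina human Ref8v2 arrays, 1 per time point, so the number of arrays limits the precision. The authors deposited bead intensities on a linear scale, without normalization across arrays, each with a detection p-value; the software behind them is not given in the sources used here. The number of negative control beads behind the deposited detection p-values, 708, was inferred from the steps in which those of single-probe rows fall. The 1497 other rows, taken as combined from several probes, do not fall on these steps. The study's methods state quantile normalization across compared arrays.

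From these intensities, the negative control level (mean 165.7 to 198.6, SD 33.06 to 43.65) was inferred from the detection p-values of 19092 single-probe rows. The limma package (3.58.1, R 4.3.3) served for background correction (normexp, offset 16) and then quantile normalization, after which log2 was taken. Plots were made in matplotlib 3.10.9. The offset understates changes of dim rows, and levels of different rows are not comparable as amounts of RNA. Rows kept were those above background, at a detection p under 0.05, on 3 or more arrays. In limma they were fitted with a natural spline of time (3 degrees of freedom, moderated F-test) and with contrasts of 4 windows of 4 arrays, all 16 in the fit (12 residual degrees of freedom), with Benjamini-Hochberg adjustment over all tested rows. No array was a replicate of another, so p-values rest on the scatter of neighbouring times. On simulated data 200 of 11957 rows were changed, and noise was drawn independently for each array around an otherwise flat mean. There the contrast of last against first window recovered 87% of changes of 1 log2 unit and 46% of 0.5, with 11 false calls. The spline recovered 67% and 27%, with 6. These rates need not hold for the real series, whose arrays may not scatter independently.

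The members, gene lists and tests were chosen with earlier results of these data known. The genes named are, for each complex, the 3 rows with the largest called change between the ends among those also time-dependent by the curve, and the 2 with the largest at each step, with the catalytic cores, complex II, isoform families, rows that are no subunits, and the 2 most changed of each related list. The other genes, including NDUFA10, NDUFA9, NDUFA11, NDUFA12, NDUFB2 to NDUFB7, NDUFS4 to NDUFS6, COX5A, COX5B, COX6C, COX7C, ATP5J and UQCRH, were named after their values were seen. One member that the rule names entered every fit and count and is not reported by name here. Symbols are those of the file, 62 of 81 being current and 19 updated through a synonym in a RefSeq table (GRCh38.p14). Protein sequences were not used here. The alternatives tried were other scalings, no background correction, an offset of 50, other filters, curves and contrasts, other rows of a gene, and leaving out each array.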

Additional observations from a re-analysis of the deposited data

How the results depend on the processing

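The largest dependence was on scaling. Under median scaling 9 members were lower between the ends (all rows, 8.36%), 26 higher and 2 lower at the early step (24.6% and 8.39%), 1 higher at the middle step (0.117%), and 1 higher and 45 lower at the late step (13.8% and 25.9%). The complex medians between the ends were 0.0412 (I), 0.2509 (II), 0.2679 (III), 0.06127 (IV) and 0.05884 (V), with all rows at 0.07074. Cyclic loess gave 13 higher at the late step (20.6%), a straight line of time called 16 members time-dependent in place of 49, and leaving the change between 21 and 24 h out of the sum gave 7 higher between the ends in place of 13. The cause was not tested, apart from the straight line, which by construction misses courses that turn. The other counts and medians stayed within 1.5 times or within the spread under the other alternatives. Leaving out each array in turn moved no count by over 1.5 times: 41 to 52 members were time-dependent, 10 to 14 higher and 14 to 19 lower between the ends, 13 to 16 and 12 to 18 at the early step, and 6 to 9 and 18 to 25 at the late step.

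Changes of some uncalled members turned sign between the ends. Those farthest from 0 in the main fit were NDUFV1 at 0.158 and NDUFS1 at 0.146, a size also found among called changes. Under median scaling the turned changes were 0.06985 for ATP5G1 (ILMN_1123), 0.09449 for NDUFS3, 0.09265 for UQCRFS1, 0.06127 for COX6A1, 0.04855 for COX7B and 0.04895 for ATP5S (ILMN_27869). For 42-45 h against 0-3 h they were -0.002483 for NDUFS1, -0.02565 for NDUFS8, -0.007202 for NDUFV1, 0.1506 for UQCRFS1 and 0.1261 for ATP5S (ILMN_27869). Without the change between 21 and 24 h they were 0.01885 for ATP5G1 (ILMN_1123), -0.003718 for NDUFA4, -0.09554 for SDHD and 0.01272 for UQCRFS1. With each array left out in turn the range was -0.006871 to 0.2377 for NDUFS1, -0.08564 to 0.02334 for ATP5G1 (ILMN_1123), -0.01218 to 0.08148 for NDUFA4, -0.05135 to 0.009504 for NDUFS3, -0.04788 to 0.121 for SDHD, -0.08242 to 0.05411 for UQCRFS1, -0.002602 to 0.04749 for COX4I1 and -0.07456 to 4.692e-05 for COX7B.

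Among called changes between the ends, that of UQCR was lost in 17 of 22 alternatives, among them without any array but those of 3, 6, 12 and 18 h. That of ATP5A1 was lost in 8, including without 3, 6, 9, 36, 39 or 45 h, COX8A in 7, including without 3, 6, 39 or 45 h, NDUFS7 in 7, including without 3, 6, 9, 42 or 45 h, and NDUFV3 in 3, with no change of direction. Their values ranged from -0.6878 to -0.2874 for UQCR, 0.1404 to 0.2977 for ATP5A1, -0.1923 to -0.0673 for COX8A and 0.1628 to 0.3461 for NDUFS7. Those of UQCRC2, UQCRC1, UQCRB, SDHB, NDUFA7, NDUFB1 and COX4NB were called in all 22. No paired analysis was possible because each time point has 1 array. A chip as a block was planned and was not run, since the file names no chips. With low signal over background, NDUFB4, NDUFC2 and NDUFS1 are the least well measured of the tested members.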
